A study of Homo sapiens with 13 samples.

Results

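The 10 genes HIF1A, EPAS1, ARNT, EGLN1, EGLN2, EGLN3, VHL, HIF1AN, VEGFA and VEGFC of the cellular oxygen-sensing pathway were followed through ribosome profiling of MDA-MB-231 cells, a mesenchymal triple-negative breast cancer line, after inhibition of translation initiation by either of 2 compounds. They were chosen by symbol as the hypoxia-inducible factor (HIF) subunits (HIF1A, EPAS1 and ARNT), their regulators (EGLN1, EGLN2, EGLN3, VHL and HIF1AN) and the growth factors (VEGFA and VEGFC). All 10 were present among the 24867 symbols of the Silvestrol table and among the 13121 symbols of the INK128 table. Silvestrol, an inhibitor of the RNA helicase eIF4A, was given at 25 nM, and INK128, an inhibitor of the active site of the kinase mTOR, at 200 nM. The labels name no transgene or deletion, and every culture was of the same line.

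The Silvestrol experiment held 7 libraries of ribosome footprints (RFs, the mRNA fragments that ribosomes protect from nuclease) and 2 mRNA libraries. The RF libraries came from untreated cells, cells treated with DMSO (the vehicle) for 1 h, cells treated with Silvestrol for 1 h, and, for 2 h of treatment, 2 DMSO and 2 Silvestrol libraries, of which the first of each came from passage 3 and the second, labelled a biological replicate, from passage 4. The mRNA libraries came from DMSO- and Silvestrol-treated cells of passage 3 at 2 h. The INK128 experiment had 1 RF and 1 total RNA library each from DMSO- and INK128-treated cells of passage 3 at 2 h, so its differences have no replicate check. For the Silvestrol RF library of passage 3 the title says 2 h and the treatment field 1 h, and for the control mRNA library the title says DMSO and the treatment field untreated. Both were placed by their titles, and the control mRNA column, whose name gives no treatment, was taken as the only control mRNA library, which bears on every mRNA and TE value with Silvestrol. The RF libraries held 2627246 to 30957055 counted reads, with the lowest total in Silvestrol-treated cells of passage 4, and the mRNA libraries 49608869 (DMSO) and 24409091 (Silvestrol). The labelled line fitted most of its markers. RFs of VIM, CD44 and AXL lay at or above 85.7 RPKM (reads scaled to transcript length and library size) in every library. ESR1 was at 0 in all of them, and PGR, CDH1 and PTPRC stayed at or below 0.108 RPKM. ERBB2 and EPCAM were present at a low level, between 1.63 and 9.94 RPKM. In mRNA, ERBB2 lay at 18.7 to 25.8 RPKM, and PECAM1, which had no RF value, at 0.826 to 0.863 RPKM. RPKM is a share of a library, so a change in the total number of footprints per cell is not seen in it, and fewer cells with footprints cannot be told apart from fewer footprints per cell.

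As background, HIF is a transcription factor made of an oxygen-regulated alpha subunit, HIF-1α (from HIF1A) or HIF-2α (from EPAS1), and the constitutive partner ARNT. In oxygenated cells the prolyl hydroxylases encoded by EGLN1 (PHD2), EGLN2 (PHD1) and EGLN3 (PHD3) modify the alpha subunits, the ubiquitin ligase component VHL then binds them for degradation, and the asparaginyl hydroxylase FIH (HIF1AN) blocks their contact with the coactivators EP300 and CREBBP. Since HIF-1α protein is short-lived, its level depends on continued synthesis, and VEGFA, an inducer of blood vessel growth, is among the best known genes that HIF activates. VEGFC acts mainly on lymphatic vessels.

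Initiation inhibitors are studied through the 5′ UTR, and the annotated 5′ UTRs of the 10 genes were read from their MANE Select transcripts (GENCODE 44 mapped to GRCh37, the build of the deposited tables, called hg19 there). Silvestrol-sensitive mRNAs are often described by a run of CGG triplets, and mTOR-sensitive ones by the 5′ terminal oligopyrimidine (TOP) tract, a C at the cap followed by pyrimidines. Of the 10 genes, EGLN1 alone held 4 or more CGG triplets in a row, a run (CGGCGGCGGCGG, sense strand only) that stood in 4.67% of 10253 genes with a 5′ UTR and a measured change in translation. The run began at nucleotide 71 of the EGLN1 5′ UTR (minus strand, chr1:231557943-231557972 for the stretch printed). The coactivator CREBBP, of the wider pathway, held 6 triplets from nucleotide 192 (minus strand, chr16:3930500-3930529). Both stretches are shown 5′ to 3′ with the triplets in capitals, since of the 10 genes and the 3 wider pathway genes read in the same way (EP300, CREBBP and GNB2L1) these held the run.
EGLN1: acgctgaggCGGCGGCGGCGGccgaggggg
CREBBP: ggagccCGGCGGCGGCGGCGGCGGcagcgg

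None of the 10 annotated 5′ ends began with C and at least 4 pyrimidines, a start found in 5.46% of the 10253 genes. The first 14 nucleotides of HIF1A (plus strand, chr14:62162231-62162244) and VEGFA (plus strand, chr6:43737948-43737961) are printed beside those of GNB2L1 (minus strand, chr5:180670893-180670906), the ribosomal scaffold protein RACK1 that binds HIF-1α, whose pyrimidine tract is in capitals. The letters describe annotated starts only, and the starts used in these cells were not measured.
HIF1A: agtgcacagtgctg
VEGFA: gcggaggcttgggg
GNB2L1: CTCTCTTTCactgc

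Of the 10 genes, 7 had 5′ UTRs above the upper quartile of the 10253 genes (246 nucleotides, median 133). The longest was that of VEGFC with 611 nucleotides, followed by EPAS1 with 505, VEGFA with 496, EGLN1 with 399, EGLN3 with 322, EGLN2 with 306 and HIF1A with 292. The VEGFA coding sequence of this transcript opens at a CTG codon, so its values cover the stretch up to that codon. Those of the rest of the 10 genes run to an ATG. The VEGFA length, folding energy, GC content and upstream ATG count are thus not measured to the same kind of start. The other 3 were short: VHL had 70 nucleotides, ARNT 32 and HIF1AN 16. Predicted folding energy largely followed length, from −327.7 kcal/mol for VEGFC to −1.70 kcal/mol for HIF1AN, against a median of −51.5 and quartiles of −104.1 and −21.3 kcal/mol. GC content ranged from 56.9% (VEGFA) to 84.4% (ARNT), around a median of 67.6%. Upstream ATG triplets numbered 4 in EGLN2, 3 each in EGLN1 and VEGFC, 1 in EPAS1 and 0 in the others, where the median was 0.

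**Figure D1:**
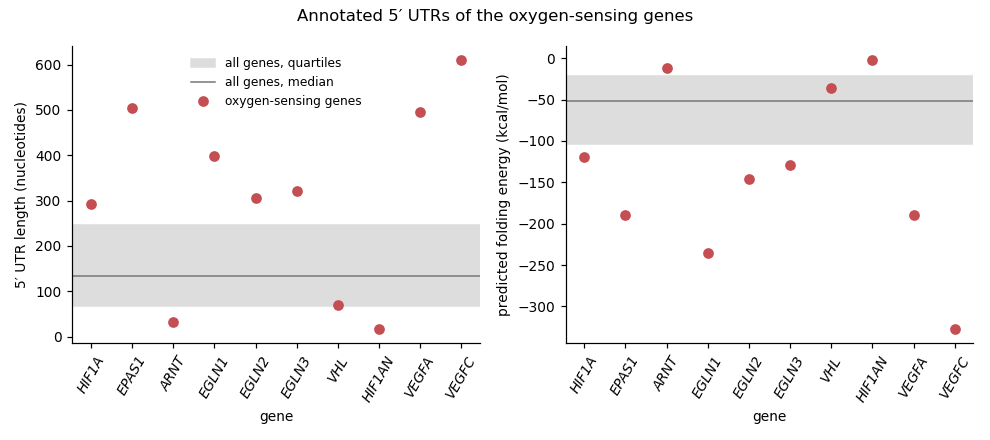
Length in nucleotides (left) and RNAfold minimum free energy in kcal/mol (right) of the annotated 5′ UTR of each of the 10 genes (points), with the median (line) and quartiles (band) of 10253 genes. In length, 7 genes lie above the band, VHL lies inside it at 70 nucleotides, and ARNT and HIF1AN lie below it at 32 and 16.

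Among the 10 genes, HIF1A carried by far the most footprints. In the 4 control RF libraries its level was 394 (untreated), 406 (DMSO 1 h), 411 and 456 RPKM (DMSO 2 h, passages 3 and 4), and the mean of the DMSO libraries at 2 h was 433 ± 32 RPKM (SD, n = 2). The others followed at 62.4 ± 2.2 RPKM for HIF1AN, 54.7 ± 11 for VEGFA, 41.5 ± 4.8 for VHL, 29.6 ± 2.0 for EGLN2, 29.1 ± 6.9 for EGLN1, 22.9 ± 2.3 for ARNT, 19.7 ± 3.0 for EGLN3, 19.5 ± 2.4 for EPAS1 and 15.0 ± 4.0 for VEGFC (SD, n = 2 each). Below HIF1A, the ranges over the 4 controls overlapped for each pair of neighbours in this order except VHL (38.1 to 44.9 RPKM) and EGLN2 (28.2 to 35.7 RPKM). Translation efficiency (TE, the RF level over the mRNA level) separated the genes differently. In DMSO-treated cells of passage 3 the TE was 5.61 for HIF1A, 3.91 for HIF1AN, 3.72 for EGLN1 and 3.59 for EGLN3, at the 77.0th to 89.9th percentiles of all genes. It was 0.791 for VEGFA, 0.520 for EGLN2 and 0.517 for VEGFC, at the 12.4th to 20.8th percentiles.

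**Figure D2:**
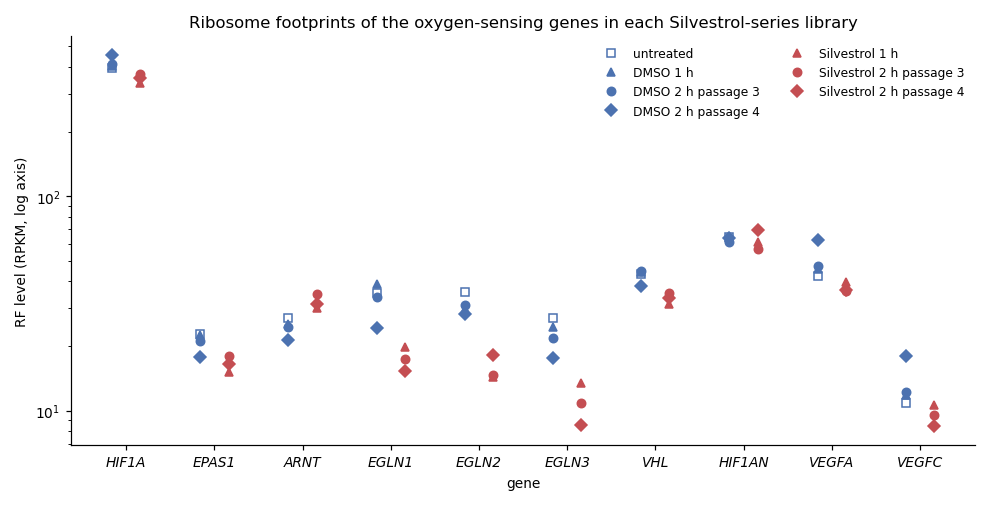
RF level (RPKM, log axis) of the 10 genes in the 7 RF libraries of the Silvestrol experiment; blue symbols are the 4 controls and red symbols the 3 Silvestrol libraries. HIF1A lies at 336 to 456 RPKM and every other gene below 70; the red symbols lie above the blue ones for ARNT, overlap them for EPAS1 and HIF1AN and lie below them for the other 7 genes.

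The question of the Silvestrol comparison was which mRNAs depend on eIF4A for ribosome loading. At 2 h no RF change of the 10 genes passed the threshold (edgeR quasi-likelihood test on the counts, Benjamini-Hochberg adjusted p of 0.05 over 10692 genes). Among all genes, 6.7% were called with fewer RFs and 1.71% with more. At an unadjusted p under 0.05 there were 5 of the 10 genes (3239 of all), and DESeq2 called 1, ARNT, with more RFs at an adjusted p of 0.035, as it did 6.56% of the 9241 genes to which it gave an adjusted p. The passage is shared by a DMSO and a Silvestrol library, and with passage as a block the edgeR test called 5 of the 10 with fewer RFs (27.8% of all genes) and ARNT with more (24.4% of all genes). The shares of all genes rose with the block as the members' did, and the members' calls are given below beside each gene.

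The libraries themselves were ordered more simply. In 7 of the 10 genes all 3 Silvestrol RF libraries lay below all 4 controls, an order that 32.8% of 10525 genes had, and in ARNT all 3 lay above, as in 10.3%. The RPKM ratios of all genes were themselves centred below 0 (median log2 ratio −0.19 at 1 h, −0.17 and −0.15 at 2 h in passages 3 and 4), whereas the edgeR scale was centred at −0.02. Over the 10 genes the median was −0.39 at 1 h, −0.35 and −0.50 at 2 h, and −0.29 on the edgeR scale.

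Among the HIF subunits, HIF1A (chr14:62162231-62214977) RFs in Silvestrol-treated cells were at 336 RPKM after 1 h and at 372 and 354 RPKM after 2 h, all below the lowest control of 394. The difference was small, a log2 change of −0.12 (SE 0.11, edgeR adjusted p = 0.50; 0.19 with the block). HIF1A mRNA was higher with Silvestrol, at 73.2 RPKM in the DMSO and 108.7 RPKM in the Silvestrol library (18193 and 13790 reads), a log2 ratio of 0.57 at the 79.6th percentile of all genes. The TE was 5.61 in DMSO- and 3.42 in Silvestrol-treated cells, and 6.22 and 3.26 when RFs were taken from passage 4. Set against the TE changes of all genes, these were z-scores of −0.41 and −0.66.

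EPAS1 (chr2:46520806-46613836) RFs overlapped between treatments. Controls lay between 17.9 and 22.8 RPKM, the 1 h Silvestrol library at 15.2 and the 2 h libraries at 17.9 and 16.5 RPKM, and the log2 change at 2 h was −0.06 (SE 0.19, edgeR adjusted p = 0.88). Its mRNA was at 17.9 RPKM in both libraries.

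ARNT (chr1:150782189-150849184), the shared partner of both alpha subunits, was the one subunit whose Silvestrol libraries all lay above the controls. The controls lay at 26.97, 25.4, 24.5 and 21.3 RPKM and the Silvestrol libraries at 30.2 (1 h), 35.1 and 31.5 RPKM (2 h), without overlap. The log2 change at 2 h was 0.66 (SE 0.18, edgeR adjusted p = 0.081; 3.4e-07 with the block). ARNT mRNA was at 9.70 and 8.01 RPKM, so that TE was 2.52 and 4.37, a z-score of 1.12, the highest of the 10 genes. It was 1.18 when RFs were taken from passage 4.

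The 3 prolyl hydroxylases had the lowest log2 RF values of the 10 genes at 1 h. At 2 h their edgeR values ran from −0.86 to −0.61, a range that did not separate them from VEGFC (−0.59), and in passage 4 the lowest log2 RPKM ratio was that of VEGFC (−1.08). EGLN1 (chr1:231499497-231558033), the main oxygen sensor for HIF-1α in most cells, had 35.5, 38.9, 34.0 and 24.2 RPKM in the controls and 19.8 (1 h), 17.5 and 15.3 RPKM (2 h) with Silvestrol. Its log2 change at 2 h was −0.61 (SE 0.22, edgeR adjusted p = 0.14; 0.0002 with the block), and −0.38 without the DMSO library of passage 3. Its mRNA lay at 9.15 and 8.71 RPKM, and the z-score of the TE change was −0.59 in passage 3 and −0.31 in passage 4.

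EGLN2 (chr19:41304901-41314339) had 35.7, 29.8, 31.0 and 28.2 RPKM in the controls and 14.4 (1 h), 14.7 and 18.2 RPKM (2 h) with Silvestrol. The log2 change at 2 h was −0.74 (SE 0.19, edgeR adjusted p = 0.073; 3e-06 with the block). At 1 h its log2 RPKM ratio of −1.05 was the only one of the 10 to pass −1, which 8.09% of 10580 genes did, and on reads scaled to library totals alone it was −0.92 (95% exact counting interval −1.07 to −0.77). The 1 h Silvestrol library was thus already below every control.

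EGLN3 (chr14:34393433-34931980), itself a gene that HIF induces, was lower with Silvestrol in RFs and in mRNA. RFs were at 26.95, 24.6, 21.8 and 17.6 RPKM in the controls and at 13.5 (1 h), 10.8 and 8.60 RPKM (2 h) with Silvestrol, a log2 change at 2 h of −0.86 (SE 0.29, edgeR adjusted p = 0.13; 0.00024 with the block). Its mRNA was at 6.08 RPKM with DMSO and 2.50 RPKM with Silvestrol (1042 and 220 reads), 2.43-fold lower. The log2 ratio of −1.28 was at the 1.19th percentile of all genes, and EGLN3 was the only one of the 10 whose mRNA passed −1, as 2.68% of 13154 genes did. The ratio of the levels, the TE of EGLN3, was 3.59 in DMSO- and 4.33 in Silvestrol-treated cells, a z-score of 0.59.

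VHL and HIF1AN lay closer to their controls. VHL (chr3:10183462-10195351) RFs lay at 43.5, 44.4, 44.9 and 38.1 RPKM in the controls and at 31.5 (1 h), 35.5 and 33.5 RPKM (2 h) with Silvestrol, so the groups did not overlap, but the log2 change at 2 h was −0.11 (SE 0.19, edgeR adjusted p = 0.75). HIF1AN (chr10:102288829-102319755) RFs lay at 60.8 to 64.5 RPKM in the controls and at 61.4, 56.8 and 69.5 RPKM with Silvestrol (log2 change 0.13, SE 0.14, edgeR adjusted p = 0.58). Their mRNA log2 ratios were 0.19 and −0.18.

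VEGFA (chr6:43737921-43754224) RFs were lower and VEGFA mRNA higher in the Silvestrol libraries. The controls had 42.5 (untreated), 46.0 (DMSO 1 h), 47.2 and 62.3 RPKM (DMSO 2 h) and the Silvestrol libraries 39.8 (1 h), 36.0 and 36.5 RPKM (2 h), all below the controls. The log2 change at 2 h was −0.46 (SE 0.18, edgeR adjusted p = 0.16; 0.0027 with the block), and −0.29 without the DMSO library of passage 4. The mRNA was at 59.7 RPKM with DMSO and 96.4 RPKM with Silvestrol (13523 and 11119 reads), 1.61-fold higher and the highest ratio of the 10 genes. The TE was 0.791 in DMSO- and 0.373 in Silvestrol-treated cells, the lowest z-score of the 10 at −0.78, and 1.04 and 0.378 when RFs were taken from passage 4, a z-score of −1.20.

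VEGFC (chr4:177604689-177714076) RFs were also lowest with Silvestrol. Its controls lay at 10.8, 11.8, 12.2 and 17.9 RPKM and the Silvestrol libraries at 10.7 (1 h), 9.54 and 8.47 RPKM (2 h), so that the 1 h library lay just under the lowest control. The log2 change at 2 h was −0.59 (SE 0.27, edgeR adjusted p = 0.22; 0.021 with the block), and −0.33 without the DMSO library of passage 4. The mRNA was at 23.6 and 27.8 RPKM. The DMSO library of passage 4 stood above the other controls in both growth factors, with VEGFC 0.72 and VEGFA 0.55 above untreated cells on the log2 scale, and below them in the EGLN genes.

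**Figure D3:**
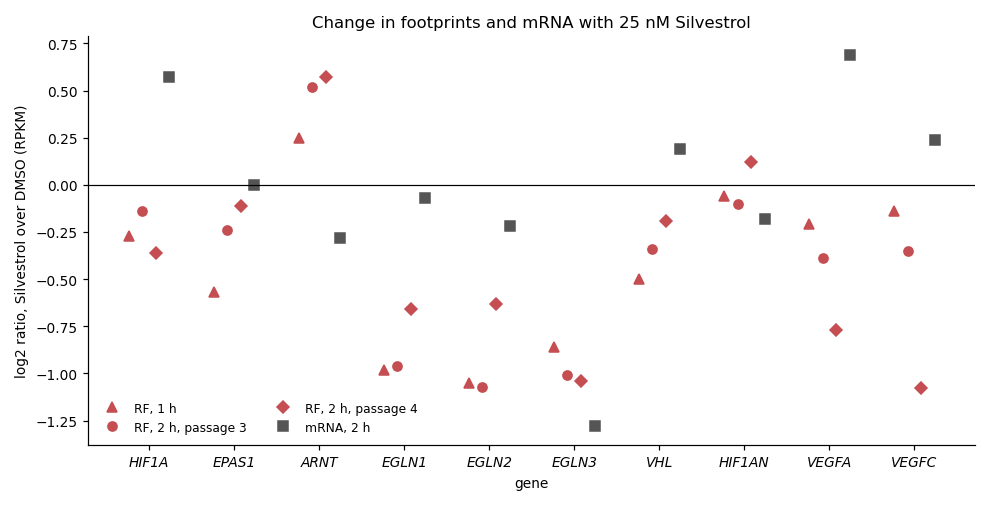
log2 ratio of RPKM in Silvestrol- over DMSO-treated cells for the 10 genes: RFs at 1 h (triangles), at 2 h in passage 3 (circles) and passage 4 (diamonds), and mRNA at 2 h (squares). EGLN1, EGLN2 and EGLN3 lie lowest in RFs at 1 h (−0.98, −1.05 and −0.86), mRNA lies above all 3 RF ratios in 7 genes (not in ARNT, EGLN3 and HIF1AN), and EGLN3 mRNA lies at −1.28.

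TE changes were tested as an interaction of treatment and kind of library over 6 libraries (4 RF and 2 mRNA). No gene passed, neither of the 10 nor of all 10692 genes (0% called), in the edgeR quasi-likelihood test. At an unadjusted p under 0.05 there were 2 of the 10 and 2487 of all genes, and DESeq2 called 942 genes and none of the 10. With passage as a block, HIF1A (log2 change in TE −0.56, edgeR adjusted p = 0.030) and VEGFA (−0.97, adjusted p = 0.0038) were called lower, as were 21.5% of all genes, and ARNT (1.07, adjusted p = 0.0014) higher, as were 21.8%. In each treatment there was 1 mRNA library, so its spread was assumed to be that of the footprints. By z-score none of the 10 reached −1.5 or 1.5 in either passage. Among 10516 genes 6.52% lay at or below −1.5 and 4.62% at or above 1.5.

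The INK128 comparison asked which mRNAs depend on mTOR activity. RF levels of the 10 genes had log2 ratios from −0.28 (EGLN3) to 0.37 (VHL). HIF1A RFs were at 124.2 FPKM (fragments scaled in the same way) with DMSO and 152.8 FPKM with INK128, and VEGFA RFs at 33.6 and 28.3 FPKM. VEGFC RFs were at 17.2 and 22.0 FPKM and VHL RFs at 3.95 and 5.09 FPKM, log2 ratios of 0.35 and 0.37 at the 92.6th and 93.1st percentiles of all genes. Total RNA FPKM was lower with INK128 for genes in general, with a median log2 ratio of −1.17 over 7206 genes. FPKM is a share of a library, so these lower values do not show less RNA per cell. Changes in total RNA and TE were therefore read against the medians of all genes. HIF1A total RNA was at 3.04 and 1.52 FPKM and VEGFA total RNA at 3.21 and 1.14 FPKM. Their log2 ratios lay 0.16 above and 0.33 below the median total RNA ratio.

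By TE none of the 9 genes that could be measured passed a z-score of −1.5 or 1.5, which 5.58% and 1.75% of 7102 genes did. EGLN3 was left out because its total RNA, at 0.382 and 0.146 FPKM, was under the minimum. The highest z-scores were those of VEGFC (1.44) and VHL (1.39), at the 97.9th and 97.6th percentiles, followed by EGLN2 (0.93) and EGLN1 (0.79). EPAS1 had the lowest (−0.77, 11.7th percentile), and HIF1A lay at 0.36, VEGFA at 0.26, HIF1AN at 0.13 and ARNT at 0.02. With z-scores from the median and the median absolute deviation, VEGFC (2.29) and VHL (2.20) passed 1.5, as did 6.86% of all genes, and EPAS1 (−1.57) passed −1.5, as did 12.3%. These values were read as FPKM without read counts, and their errors could not be estimated from single libraries.

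**Figure D4:**
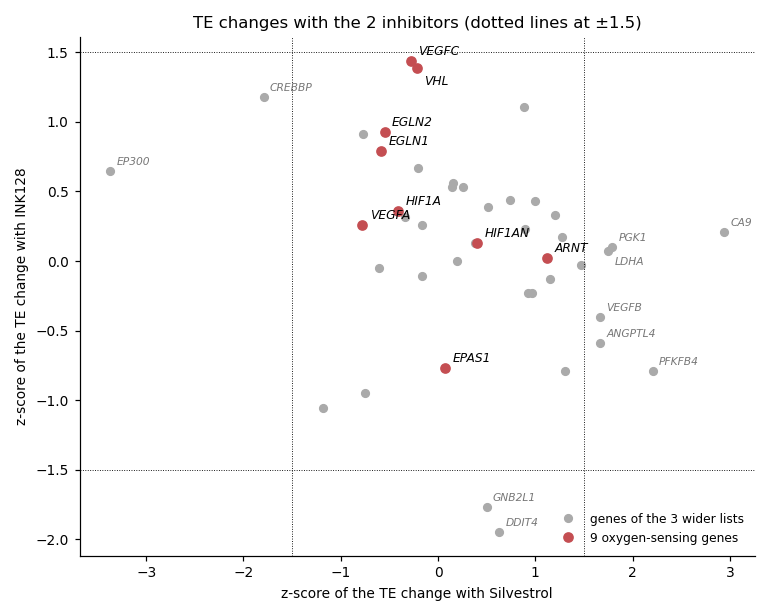
z-score of the TE change with Silvestrol (horizontal) against that with INK128 (vertical), each from 1 passage, for 9 of the 10 genes (red) and for the wider pathway (grey); EGLN3 has no INK128 value. The 9 genes lie between −0.78 and 1.12 with Silvestrol and between −0.77 and 1.44 with INK128, inside the dotted thresholds, and EP300 (−3.37) and CA9 (2.94) lie farthest out with Silvestrol.

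Of the wider pathway genes that were tested, only the coactivators EP300 and CREBBP were called with fewer footprints by the edgeR test without the passage block. Both are histone acetyltransferases that HIF recruits at its target genes. EP300 RFs were at 15.7, 15.1, 13.6 and 13.4 RPKM in the controls and at 3.62 (1 h), 2.07 and 2.54 RPKM (2 h) with Silvestrol. The log2 change at 2 h was −2.44 (SE 0.16, edgeR adjusted p = 0.021), while EP300 mRNA was at 9.16 and 17.4 RPKM. CREBBP RFs were at 12.6, 12.0, 11.1 and 10.7 RPKM in the controls and at 5.88, 4.63 and 6.04 RPKM with Silvestrol, a log2 change of −0.92 (SE 0.17, edgeR adjusted p = 0.040), with mRNA at 8.13 and 14.3 RPKM. Their TE z-scores were −3.37 and −1.79 in passage 3, and −3.12 and −1.40 in passage 4. EP300 has a 5′ UTR of 413 nucleotides without the CGG run. Without either Silvestrol library at 2 h the test called 0 genes, these included.

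Among 11 cofactors and degradation components, 10 were tested and EP300 and CREBBP were the 2 that passed, both with fewer RFs (6.7% of all genes), with a median log2 RF change of 0.10 over the 10 against −0.02 over all genes. With passage as a block 3 were called with fewer and 4 with more RFs, where the shares of all genes were 27.8% and 24.4%. The VHL complex partners, named after their values were seen, were CUL2 (log2 change −0.43, edgeR adjusted p = 0.098; 0.00015 with the block), RBX1 (0.67, edgeR adjusted p = 0.059; 3.2e-10 with the block) and the elongins TCEB2 (0.45, edgeR adjusted p = 0.43; 0.00034 with the block) and TCEB1 (0.44, edgeR adjusted p = 0.85; 0.30 with the block). The TCEB1 value (SE 1.24) rests on 6 and 12 reads with DMSO and 9 and 5 with Silvestrol in passages 3 and 4. Its passage 4 RPKM went the other way, at 26.0 with DMSO and 7.97 with Silvestrol, and passage 3 had no RPKM with DMSO. Under INK128, GNB2L1 was the one gene of this list past a z-score threshold (−1.77, where 5.58% of all genes lay at or below −1.5), with RFs at 1580 and 701 FPKM and total RNA at 67.5 and 25.7 FPKM. Of 8 further VEGF ligands and receptors, 3 had enough footprints for the test and none passed (with passage as a block 1 was called with fewer and 1 with more RFs, against the same 27.8% and 24.4% of all genes). NRP2, named after its values were seen, fell under the minimum, a mean over both treatments. Its RFs at 2 h were at 1.14 and 1.25 RPKM with DMSO (111 and 29 reads). With Silvestrol they were at 0.293 and 0.306 RPKM (14 and 3 reads), and this difference was not tested. VEGFB, a ligand of FLT1, had RFs of 8.28 to 10.3 RPKM in the controls and 13.1, 14.9 and 20.5 RPKM with Silvestrol (log2 change 1.07, SE 0.28, edgeR adjusted p = 0.079; 3.7e-05 with the block) and a TE z-score of 1.67, or 1.91 in passage 4. The signalling receptors FLT1, KDR and FLT4, named after their values were seen, had at most 0.344 RPKM of RFs in any library of the Silvestrol experiment.

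A list of 27 genes that HIF is known to induce was examined in the same libraries. Their mRNA was lower with Silvestrol for most: 22 of 27 lay below the median of all genes and the median log2 ratio was −0.52, against 0.05 for 13154 genes. On reads scaled to library totals alone the count was again 22 and the medians −0.42 and 0.12. Of the 27, 4 passed −1, namely CA9, PFKFB4, PGK1 and BNIP3 (2.68% of all genes did), and BHLHE40 passed 1 with 1.48 (6.24% of all genes did); BNIP3 and BHLHE40 were named after their values were seen. CA9, carbonic anhydrase IX, had 17.3 RPKM of mRNA with DMSO and 2.65 RPKM with Silvestrol (1649 and 134 reads), a log2 ratio of −2.70. PGK1, a glycolytic kinase, had 381 and 169 RPKM, and PFKFB4, a regulator of glycolysis, 23.4 and 10.2 RPKM.

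The footprints of the 27 genes were not centred below those of all genes at 2 h. None was called by the edgeR test (6.7% of all genes were with fewer and 1.71% with more RFs), with passage as a block 3 were called with fewer and 9 with more RFs (27.8% and 24.4% of all genes), and the median log2 RF change was 0.20, against −0.02 for all genes, with 9 of 27 below the median of all genes. CA9 RFs were at 3.63, 4.26, 3.48 and 3.19 RPKM in the controls and at 5.96, 3.23 and 4.18 RPKM with Silvestrol. TE z-scores were accordingly high, with a median of 0.74 against 0.03, and 5 genes at or above 1.5 (4.62% of all genes were): CA9 (2.94), PFKFB4 (2.21), PGK1 (1.79), LDHA (1.75), the lactate dehydrogenase subunit, and ANGPTL4 (1.67), a secreted lipase inhibitor. In passage 4 the first 3 were at 3.50, 2.24 and 1.71, and LDHA (1.45) and ANGPTL4 (1.37) lay below 1.5. Each of these z-scores rests on the same 2 mRNA libraries, whose control is untreated by its treatment field, and the part of that label in the mRNA differences was not tested. Under INK128 the median z-score was 0.11 against 0.13. DDIT4, which restrains mTOR, had the one value past a threshold (−1.95, again beside 5.58% of all genes). Its RFs were at 22.4 FPKM with DMSO and 7.92 FPKM with INK128, and its total RNA was also lower, at 1.24 and 0.404 FPKM. The z-score is set against the TE changes of all genes, whose mean log2 value with INK128 was 1.12.

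**Figure D5:**
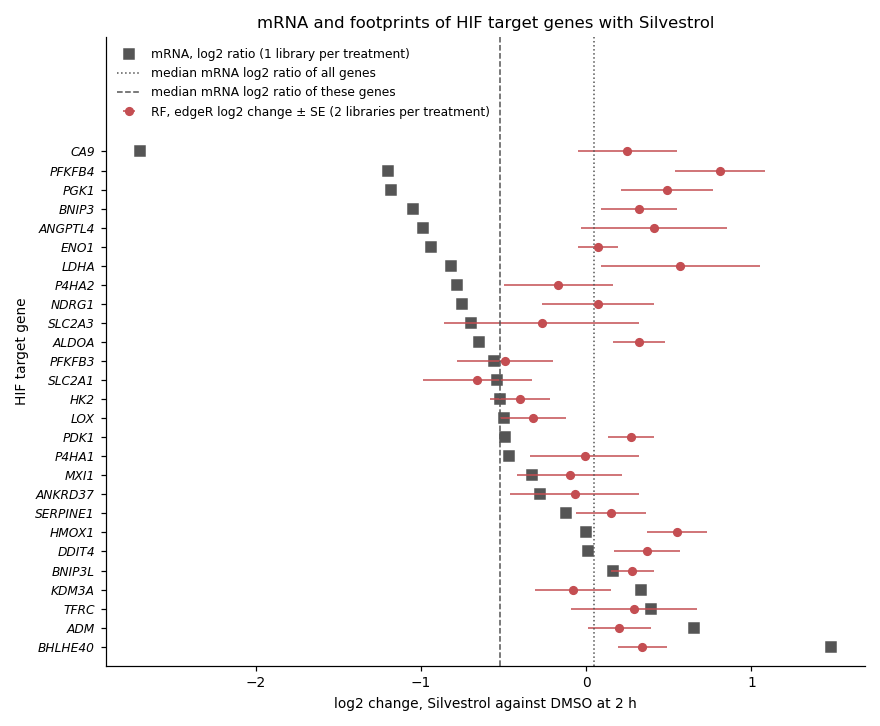
log2 change with Silvestrol at 2 h of 27 HIF target genes, ordered by mRNA: squares are mRNA ratios from 1 library per treatment and circles the edgeR RF change ± SE from 2 libraries per treatment. Dashed and dotted lines mark the median mRNA ratio of these genes (−0.52) and of all genes (0.05); CA9 mRNA lies farthest left at −2.70 while its RF change is 0.25.

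Genes with changes like those of HIF1A and VEGFA were sought over 6 log2 changes (RFs with Silvestrol at 1 h and in each passage at 2 h, mRNA with Silvestrol, RFs and total RNA with INK128) among 1392 well-covered genes. The nearest to HIF1A by Euclidean distance were HSPA5 (0.26), the endoplasmic reticulum chaperone BiP, NRP1 (0.37), a co-receptor of VEGF, and SLC7A1 (0.38), an amino acid transporter. The nearest to VEGFA were SSBP1 (0.50), MANF (0.54) and ARCN1 (0.55). HSPA5 had an mRNA log2 ratio of 0.63, and RF ratios of −0.17 at 1 h and 0.03 and −0.34 at 2 h.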

How the data were processed

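MDA-MB-231 cells were profiled in 13 libraries, 9 in the Silvestrol and 4 in the INK128 experiment. Per the labels, CASAVA 1.8.1 and Bowtie2 were used by the authors with hg19; the deposited Silvestrol table holds whole read counts and RPKM per transcript, and the deposited INK128 table holds FPKM. The authors' own ratio, log2 and z-score columns were not used. Tables were normalized separately and compared only within themselves. For each symbol the row with the highest mean RF level was kept.

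RF counts at 2 h were tested with edgeR 4.0.16 (quasi-likelihood, TMM, R 4.3.3), 2 against 2 libraries, for genes with a mean of at least 1 RPKM (10692 genes), and TE as the interaction over 6 libraries. DESeq2 1.42.0 and passage as a block were alternatives. The labels give the passage, and the passage 3 minus passage 4 differences in DMSO and Silvestrol correlated at r = 0.816 over 10692 genes. As the labels name passages of 1 cell line, p-values measure the spread between these cultures. The TE change was the log2 ratio of RPKM (or FPKM) ratios in passage 3, with no pseudocount, for RFs of at least 1 and RNA of at least 0.3 on average, and z-scores used the mean and SD of all genes. Other comparisons had 1 library per treatment, with values past a log2 ratio of 1 or −1 counted and no test. Intervals and read totals cover counting error only. Tested on simulated data, the RF step recovered 184 of 200 genes changed by 2 on the log2 scale, with 9 false calls, and the TE step 18 of 200. The simulated counts had a common spread for all genes and no passage effect, unlike the libraries. Smaller changes, such as those of the 10 genes, were not simulated.

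The 5′ UTRs came from GENCODE 44 on GRCh37, matched by symbol for 10253 of 10516 genes (1187 by an older symbol), and were folded with RNAfold 2.7.2. All 10 genes are described. Of the wider lists, genes were named if they passed the RF test or a z-score of 1.5 in size under either compound. BNIP3, BHLHE40, CUL2, RBX1, TCEB1, TCEB2, FLT1, KDR, FLT4 and NRP2 were named outside this rule. For likeness, genes needed 20 reads in every Silvestrol-experiment library used and 1 FPKM in every INK128-experiment library, and 3 were named for each of HIF1A and VEGFA. The genes and lists were chosen with earlier results of these data known.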

Additional observations from a re-analysis of the deposited data

How the results depend on the processing

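The 899 RF calls became 1618 with DESeq2, 5581 with the replicate block, and 0 to 773 when each library was left out in turn: 451 without the DMSO library of passage 3, and 0 without either Silvestrol library. Genes with more RFs made up 20.4%, 37.5% and 46.8% of the calls in the test without the block, with DESeq2 and with the block. Members called went from 0 to 1 (DESeq2) and 6 (block), and 0 were called with any library left out. For TE, 0 calls became 942 (DESeq2), 261 (no minimum RPKM), 4633 (block, 3 members) and 0 to 576 when each library was left out, with 576 without the DMSO library of passage 3 and 166 without that of passage 4. With each library left out in turn the RF change of EPAS1 ran from −0.20 to 0.12, that of VHL from −0.23 to 0.04 and the TE change of EPAS1 from −0.11 to 0.23. The RF changes of HIF1A (−0.22 to −0.06), VEGFA (−0.62 to −0.29), VEGFC (−0.81 to −0.33), EGLN1 (−0.80 to −0.38), EGLN2 (−0.84 to −0.63), EGLN3 (−1.13 to −0.65), ARNT (0.51 to 0.82) and HIF1AN (0.03 to 0.20) kept their direction. The block changed no other call of the 10 genes.

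The 520 INK128 z-scores past the threshold became 1224 without a minimum and 1357 with the median and MAD, where 3 members passed (VEGFC and VHL up, EPAS1 down). ARNT went from 0.02 to −0.86 with a pseudocount of 0.5, −0.02 without a minimum and −0.18 with the median and MAD, and EGLN1 and HIF1AN went to −0.12 and −0.18 with the pseudocount. With the same pseudocount HIF1A went from 0.36 to 0.98 and VEGFA from 0.26 to 0.59. Of RF ratios past 1 or −1 at 1 h, 890 became 1710 without a minimum. On reads scaled to library totals alone the 1 member past it became 0, HIF1AN was at 0.06 at 1 h, and the mRNA ratios of EPAS1 and EGLN1 were 0.06 and 0.04. For mRNA, 1174 became 665 with the pseudocount and 2215 without a minimum. For INK128 RFs 296 became 451 without a minimum, and for total RNA 403 became 64 with the pseudocount and 827 without a minimum. With the pseudocount, total RNA relative to the median was −0.13 for HIF1A, 0.22 for ARNT and 0.16 for EGLN1. The cause of these moves was not tested. Low RF depth in passage 4 (2627246 reads with Silvestrol) limits the precision of the 2 h comparison, and the 2 mRNA libraries limit every TE value.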
